A study of Homo sapiens with 5 samples.

Results

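Long intergenic noncoding RNAs with systematic LINC symbols were described in HEK293T cells that expressed dCas9 methyltransferases. They were all gene symbols made of LINC and a number, and were selected on their reads, with at least 50 summed over the 5 RNA libraries. This left 172 of the 355 such genes with a read, among 19716 genes with a read in all. Because members were chosen by total reads, their being expressed is no result, and a gene high in 1 library could enter through it: 18 of the 172 had fewer than 50 reads once their highest library was left out. Just inside the minimum were LINC01268 with 51 reads and LINC00102 and LINC00242 with 54 each, and just outside it LINC00936, LINC01341, LINC00987 and LINC00837 with 49 each. The name itself is a label of annotation, and 43 of the 172 carry another symbol in current RefSeq.

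HEK293T is an established line from human embryonic kidney with the large T antigen of SV40. In 4 groups cells received 5 sgRNAs against the promoter of uPA (PLAU, the urokinase plasminogen activator) with a fusion of nuclease-dead Cas9 (dCas9), blue fluorescent protein (BFP) and 1 partner: EGFP, which is no methyltransferase, or the catalytic domain of DNMT1, DNMT3A or DNMT3B. DNMT1 copies methylation onto new DNA strands, while DNMT3A and DNMT3B set it on unmethylated DNA. The control received pUC19, a plasmid with no dCas9, BFP or sgRNA, so every fusion library differs from it also by dCas9 and guides. The authors report higher methylation of the uPA promoter than with pUC19 for the DNMT3A and DNMT3B fusions, but not for DNMT1 or EGFP. RNA was taken 48 h after transfection with 1 ug of plasmid, and the labels give BFP sorting for all groups, so how pUC19 cells could have been gated is unclear. Each group had 1 library, so differences between groups have no replicate check, and the p-values of pairs below compare libraries, not conditions.

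The totals, in units of 1000000 reads, ranged from 26.2 (EGFP fusion) to 36.1 (pUC19), at which 3 reads, taken as the floor, corresponded to between 0.0830 and 0.114 of every 1000000 reads. The HEK293 markers PAX2 (6.08 to 7.72 TPM, transcript level per length and library) and IRS4 (66.3 to 395.9) were present in every library. CD3E of T cells and UMOD of kidney tubules had 0 reads in all 5. IRS4 stood at 395.9 TPM in pUC19 and at no more than 76.5 in any fusion, so this marker of the line moved with the contrast against pUC19, and its part in the results below was not tested.

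As background, LINC transcripts are made by RNA polymerase II from their own promoters, are often spliced and polyadenylated, and are mostly low in level and restricted in tissue. Some act as RNA, by binding proteins, by acting as decoys or by acting on neighbouring genes, and others were later found to encode microproteins. CpG-dense promoters are usually unmethylated, and methylation of such promoters is associated with silencing.

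In current RefSeq, 153 members were lncRNA genes and 15 were protein-coding under later symbols, such as SMIM26 (LINC00493), SMIM30 (LINC00998) and MTLN (LINC00116). Of the remainder, 1 had another biotype and 3 had identifiers that were not found in RefSeq. On GRCh37, the build of the files, 163 members had a GENCODE position. Of these, 32 overlapped a protein-coding gene and 73 lay within 10000 bp of one. Exon sequence was shared with a coding gene on the same strand by 11 members and on the opposite strand by 14. Whether reads were counted by strand was not stated, so levels of members that share exon sequence are uncertain. A further limit applies to 8 members with a near-identical annotated copy (at least 95% identity over at least 50% of the length), among them LINC01106, LINC01123 and LINC00152 (CYTOR), since only uniquely mapped reads were counted.

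Promoter sequences of 300 bases, from 250 before to 50 after the start site, were matched in RefSeq (GRCh38.p14, a different build from the files) for 125 members. With a GC content from 55% and a CpG count from 0.6 of that expected, 46 of them were CpG-rich (36.8%, against 44.3% of all 35116 promoters). The letters CACGTG, the E-box, which read the same on both strands, were found in 12 member promoters (9.6%, against 7.26% of all). The promoters below belong to the members on which the results turn and span the range of CpG content. They are written 5′ to 3′ on the strand of the gene, with every CG in capitals. NORAD, LINC00086 and LINC01106 are CpG-rich, whereas LINC00938, LINC00641 and LINC01140 are not. DNA methylation was not analysed here.

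NORAD (LINC00657), chr20:36050911-36051210, minus strand, 23 CpGs
LINC00657: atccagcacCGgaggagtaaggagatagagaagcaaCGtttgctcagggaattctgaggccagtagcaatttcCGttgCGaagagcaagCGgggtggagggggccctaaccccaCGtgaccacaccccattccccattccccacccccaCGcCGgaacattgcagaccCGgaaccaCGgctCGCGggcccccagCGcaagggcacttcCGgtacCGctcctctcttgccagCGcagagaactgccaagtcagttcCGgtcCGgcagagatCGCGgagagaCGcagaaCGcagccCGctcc

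LINC00086, chrX:135421694-135421993, plus strand, 30 CpGs
LINC00086: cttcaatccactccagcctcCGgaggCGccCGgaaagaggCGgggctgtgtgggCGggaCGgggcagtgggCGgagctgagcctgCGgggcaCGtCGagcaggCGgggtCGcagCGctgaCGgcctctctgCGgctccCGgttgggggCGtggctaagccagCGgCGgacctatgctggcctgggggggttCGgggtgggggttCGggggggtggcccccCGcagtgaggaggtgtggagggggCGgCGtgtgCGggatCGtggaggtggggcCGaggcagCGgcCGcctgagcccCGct

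LINC01106, chr2:110384487-110384786, minus strand, 24 CpGs
LINC01106: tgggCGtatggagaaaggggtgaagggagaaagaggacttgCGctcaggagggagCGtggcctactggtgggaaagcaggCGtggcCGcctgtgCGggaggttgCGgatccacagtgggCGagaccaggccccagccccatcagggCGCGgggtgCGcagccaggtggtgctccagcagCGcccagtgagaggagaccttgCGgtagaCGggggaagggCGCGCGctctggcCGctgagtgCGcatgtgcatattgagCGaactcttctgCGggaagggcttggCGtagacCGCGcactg

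LINC00938, chr12:45727872-45728171, minus strand, 9 CpGs
LINC00938: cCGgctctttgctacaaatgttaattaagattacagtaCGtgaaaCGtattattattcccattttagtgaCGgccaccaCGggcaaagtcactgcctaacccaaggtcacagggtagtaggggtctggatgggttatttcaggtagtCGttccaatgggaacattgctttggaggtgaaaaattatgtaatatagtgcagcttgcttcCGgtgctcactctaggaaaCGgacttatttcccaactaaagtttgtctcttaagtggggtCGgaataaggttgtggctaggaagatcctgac

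LINC00641, chr14:21206851-21207150, minus strand, 2 CpGs
LINC00641: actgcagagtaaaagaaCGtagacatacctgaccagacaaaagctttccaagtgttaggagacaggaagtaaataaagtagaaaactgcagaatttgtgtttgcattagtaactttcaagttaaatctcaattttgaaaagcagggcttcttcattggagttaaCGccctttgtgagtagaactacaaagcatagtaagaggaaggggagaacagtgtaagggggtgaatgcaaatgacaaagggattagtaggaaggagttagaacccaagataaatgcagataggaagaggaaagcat

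LINC01140, chr1:87129515-87129814, plus strand, 2 CpGs
LINC01140: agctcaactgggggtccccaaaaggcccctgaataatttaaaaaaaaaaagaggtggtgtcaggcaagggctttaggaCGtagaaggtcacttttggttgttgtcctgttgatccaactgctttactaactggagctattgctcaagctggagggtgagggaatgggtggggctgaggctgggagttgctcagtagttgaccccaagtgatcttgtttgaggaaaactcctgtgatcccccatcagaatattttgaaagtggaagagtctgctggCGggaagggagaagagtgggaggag

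LINC genes were a small and uneven part of the transcriptome. Together they held between 0.0973% (DNMT3B fusion) and 0.120% (pUC19) of all reads. Their median total was 231 reads, against 3547 for the 15351 genes that reached the same minimum. Per length, the median LINC level lay between 1.54 TPM (DNMT3A fusion) and 2.12 TPM (pUC19), while that of all those genes lay between 14.4 and 17.0 TPM. Fewer than 200 reads were found for 76 members, 200 to fewer than 1000 for 61, and 1000 or more for 35. The 10 members with the most reads held 47.8% of all LINC reads. All 172 had a read in each library.

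The highest levels per length belonged to genes now known to encode microproteins. LINC00493 (SMIM26, a mitochondrial microprotein) stood at 91.7, 96.5, 75.5, 110 and 121 TPM in the DNMT1, DNMT3A, DNMT3B, EGFP and pUC19 libraries, the order used from here on. LINC00998 (SMIM30, a microprotein of membranes) followed with 63.9, 63.1, 59.2, 91.2 and 88.5 TPM. For LINC00998 the DNMT1, DNMT3A and DNMT3B libraries lay close together below the other 2, and neither gene was called in any comparison.

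LINC00657 (NORAD), the third, is an abundant cytoplasmic RNA that is needed for chromosome stability. On GRCh37 it spans chr20:34633540-34638940 on the minus strand. It was found at 43.5, 35.0, 39.7, 64.8 and 71.9 TPM. The EGFP fusion lay close to pUC19, and the DNMT1, DNMT3A and DNMT3B libraries lay below both. The DNMT3A fusion was called lower than pUC19 (log2 ratio -1.04, exact test, adjusted p = 8.4e-225), and the DNMT3B (-0.86) and DNMT1 (-0.72) fusions missed the 2-fold limit. The DNMT3A ratio itself lay at that limit, and under TMM scaling it was -0.99 and no longer called, nor was it with a coefficient of variation of 0.2. NORAD alone gave 14.2% of LINC reads in pUC19 and 8.02% in the DNMT3A fusion.

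The other 7 of the 10 highest by mean TPM ranged from 15.7 to 60.7 TPM. LINC00263 (OLMALINC) stood at 37.0, 47.5, 52.3, 60.7 and 35.8 TPM, and LINC01061, which has no GENCODE position, at 34.3, 40.8, 42.8, 36.7 and 26.2. For LINC00263, LINC01061 and LINC00649 pUC19 was below all 4 fusions, for LINC00263 only just below DNMT1. LINC00923 was the only one of the 7 that was called against pUC19, lower in the DNMT3B fusion at 19.1 TPM against 38.5, a call that was lost under TMM scaling (log2 -0.92 from -1.01) and with a pseudocount of 1 TPM (-0.98). The plot of the highest members gives the levels of all 10.

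**Figure D1:**
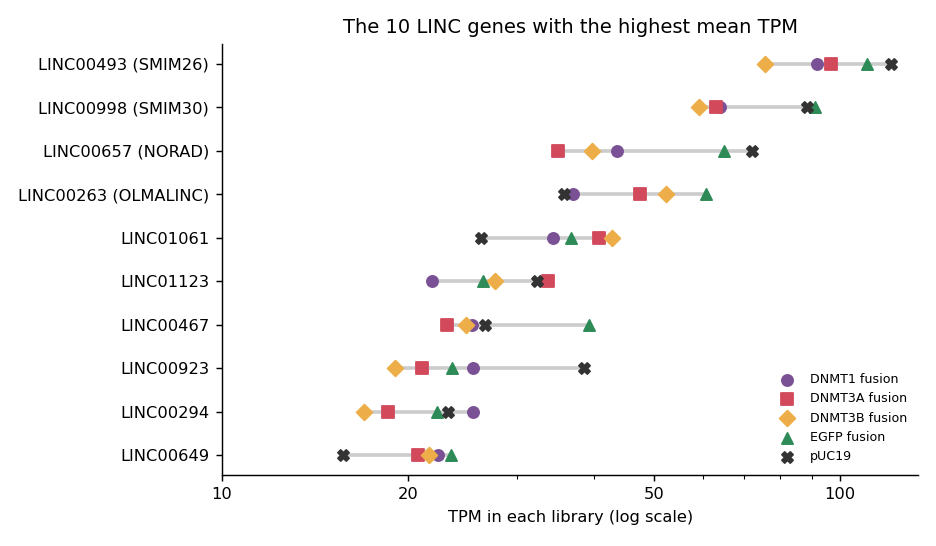
TPM on a log axis in each of the 5 libraries for the 10 LINC genes with the highest mean TPM, 1 symbol per library (n = 1 each), with a grey bar over the range. NORAD falls from 71.9 TPM in pUC19 and 64.8 in the EGFP fusion to between 35.0 and 43.5 in the DNMT1, DNMT3A and DNMT3B fusions. The other genes, apart from LINC00923, keep within 2-fold.

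To ask which LINC genes differed from the control, each fusion was compared with pUC19 by an exact conditional binomial test, and calls required a ratio of TPM + 0.1 of at least 2 with an adjusted p-value not above 0.001. In bulk RNA, fewer cells with a transcript and less transcript per cell cannot be told apart. The DNMT1 fusion had 3 LINC genes called higher (1.82% of all genes at the same minimum were) and 16 lower (4.41%), that is 1.74% and 9.30% of members. The DNMT3A fusion had 3 higher, where 5.33% of all genes were called, and 15 lower (5.95%). In the DNMT3B fusion 2 were higher (5.45%) and 17 lower (5.15%), and in the EGFP fusion 4 were higher (3.1%) and 7 lower (3.82%). As shares of members, 1.74% rose and 8.72% fell in the DNMT3A fusion, 1.16% and 9.88% in the DNMT3B fusion, and 2.33% and 4.07% in the EGFP fusion. The shares called lower depended on depth. Among members with fewer than 200 reads, 5.26%, 2.63% and 5.26% were lower in the DNMT1, DNMT3A and DNMT3B fusions, fewer than the 6.24%, 9.90% and 8.83% of all genes of that depth. With 200 to fewer than 1000 reads the shares were 16.4%, 16.4% and 14.8% against 9.21%, 11.2% and 10.3%, and with 1000 or more reads 5.71%, 8.57% and 11.4% against 2.90%, 3.97% and 3.24%. The shares over all members are therefore not read as a property of LINC genes. The 4 comparisons share the pUC19 library, and no test of these shares was made.

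**Figure D2:**
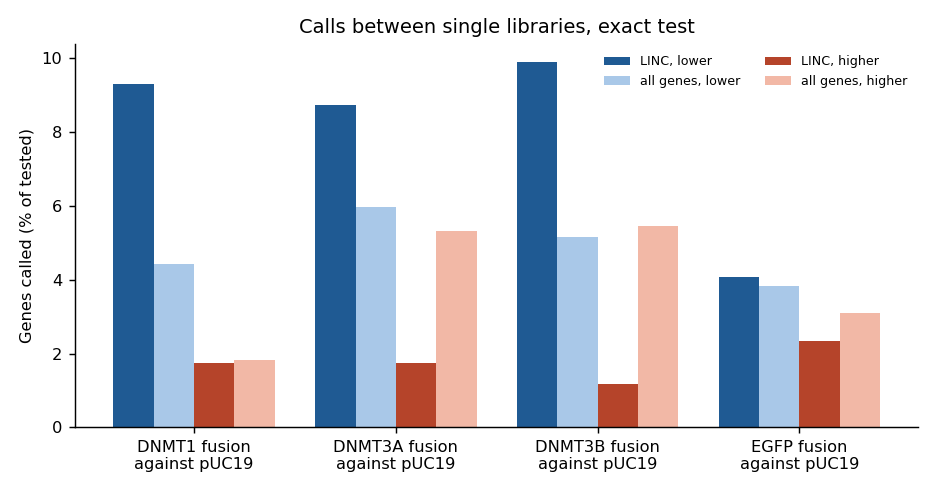
Percent of tested genes called lower (blue) or higher (red) than pUC19 in each fusion library, for the 172 LINC genes (dark) and all 15351 genes with at least 50 reads (light). Of LINC genes, 9.88% were called lower in the DNMT3B fusion against 5.15% of all genes, and 1.16% higher against 5.45%.

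In all, 35 members (20.3%) were called in at least 1 fusion, where 18.3% of all genes were. Of these 28 were lower (16.3% of members, 9.73% of all genes) and 7 higher (4.07% and 8.57%), and 0 were called in both directions (0.0195% of all genes). Of these, 17 passed in a single fusion, while 8 passed in 2, 6 in 3 and 4 in every fusion. The last 10 made up 5.81% of members, and 4.55% of all genes were called in 3 or 4 fusions. Most members moved little, and 114 had each fusion within 2-fold of pUC19. The pUC19 value was above all 4 fusions for 26.7% of members (32.5% of all genes) and below all 4 for 18.6% (23.2%). These shares were not taken by depth, so they are not read as a property of LINC genes. With a coefficient of variation of 0.2 assumed between libraries in place of read sampling alone, the calls fell to 0, 2, 3 and 0 in the DNMT1, DNMT3A, DNMT3B and EGFP fusions.

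The 4 members called lower in all 4 fusions (1.49% of all genes were) were LINC00938, LINC00883, LINC00086 and LINC01106, and 0 members were called higher in all 4 (0.56%). LINC00938 is an lncRNA on the minus strand of chr12:46111829-46121643 (GRCh37), 1846 bp from ARID2, a subunit of the PBAF chromatin remodelling complex. It gave 42, 44, 58, 44 and 259 reads, or 1.54, 1.57, 2.34, 1.77 and 7.38 TPM. The 4 fusions lay close together and pUC19 far above them, with log2 ratios of -2.19 (95% interval of the read ratio -2.75 to -1.77), -2.16, -1.62 and -2.00. ARID2 itself was found at 15.8, 26.9, 29.0, 19.6 and 17.9 TPM and was called in none of the 4. LINC00938 was also the only member called when the 4 fusions were set together against pUC19 in edgeR's quasi-likelihood fit (log2 -1.98, SE 0.32). It was lower in 4 of 4, but all 4 ratios share the pUC19 library and are not independent. The fusions in that fit are different constructs, and the single control library was assumed to vary like them. That fit called 0.671% of all genes lower and 0.0977% higher, and 0 members higher. At an unadjusted p under 0.05 it had 17 members lower and 8 higher, and DESeq2 called 10 members. Without the DNMT1, the DNMT3A or the EGFP fusion it called 0.

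LINC00883 (DUBR), whose mouse counterpart Dum is known from muscle precursor cells, lies at chr3:106939591-107067311 on the plus strand. It gave 69, 29, 28, 69 and 210 reads, or 1.70, 0.694, 0.758, 1.86 and 4.02 TPM. The libraries fell into 3 levels, pUC19 highest, then DNMT1 and EGFP, then DNMT3A and DNMT3B. The log2 ratios to pUC19 were -1.19, -2.37, -2.26 and -1.07, with upper bounds of the 95% interval between -2.00 and -0.75. Its nearest coding gene, CCDC54 (28975 bp away), had 2 reads in all.

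LINC00086 is now SMIM10L2A, a protein-coding gene at chrX:134555869-134562000 on the plus strand, whose promoter is given above. It stood at 1.26, 0.886, 0.874, 1.51 and 3.47 TPM, with log2 ratios of -1.39, -1.85, -1.87 and -1.15. Its relative LINC00087 (SMIM10L2B), named here after its values were seen, stood at 3.31, 1.93, 2.09, 3.37 and 5.43 TPM and was called lower in the DNMT3A and DNMT3B fusions. Both genes were highest in pUC19 and lowest in the DNMT3A and DNMT3B fusions. Their transcripts are 92.2% identical over 2817 bases, so part of their reads may have been left out or placed on the other. The coding neighbour of LINC00086, ZNF449, a zinc finger gene 58531 bp away, was called in none of the 4 fusions.

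LINC01106, at chr2:111132715-111142019 on the minus strand, gave 38, 28, 13, 23 and 123 reads, or 1.39, 0.997, 0.524, 0.924 and 3.50 TPM. All 4 fusions lay below pUC19, with log2 ratios of -1.27, -1.71, -2.53 and -1.81. Its near-identical copy LINC01123 (96.8% identity) had more reads, at 21.9, 33.7, 27.7, 26.5 and 32.4 TPM, and was not called in any fusion. With unique counting, the level of each depends on the few positions where they differ.

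Lower in 3 fusions were LINC01252, LINC01003, LINC01184 and LINC00174, the last pair named after their values were seen. LINC01252 (3.31, 2.68, 2.70, 4.06 and 7.71 TPM) missed the 2-fold limit in the EGFP fusion (log2 -0.91). LINC01003 (2.64, 3.11, 3.83, 3.51 and 7.28 TPM) missed it in the DNMT3B fusion (also -0.91). LINC01003 lies 27142 bp from KMT2C, a histone H3 lysine 4 methyltransferase, which was higher in all 4 fusions and was called in the DNMT3B fusion, at 33.2 TPM against 16.0. LINC01184 (SLC12A2-DT, a divergent transcript of the SLC12A2 transporter gene) stood at 1.84, 1.63, 1.46, 3.09 and 4.09 TPM, with the EGFP fusion nearest to pUC19, and LINC00174 at 1.33, 1.33, 1.48, 1.82 and 3.29 TPM.

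Higher levels were rarer. LINC01140, at chr1:87595448-87634881 on the plus strand, gave 35, 63, 99, 49 and 18 reads, or 0.824, 1.44, 2.56, 1.27 and 0.329 TPM. It was called higher in the DNMT3A, DNMT3B and EGFP fusions (log2 1.85, 2.63 and 1.67), and the DNMT1 fusion missed the p-value limit (log2 1.11, adjusted p = 0.0034, exact test). LINC00282, now the protein-coding TMEM272, stood at 0.900, 1.01, 1.12, 1.03 and 0.380 TPM and was called higher in the same 3 fusions. LINC01160, which overlaps the small GTPase gene RAP1A on the opposite strand, was called in the DNMT1 and DNMT3A fusions (13.0, 14.6, 11.5, 11.7 and 5.86 TPM), with log2 0.96 and 0.98 in the DNMT3B and EGFP fusions. RAP1A was not called and was highest in pUC19, at 47.1 TPM against 34.3 to 43.8. Without strand, reads from any exon sequence that such overlapping genes share cannot be told apart. LINC00174 with TPST1 and LINC00094 with BRD3 also overlap on opposite strands. The largest ratios between the highest and lowest of the 5 libraries (of TPM + 0.1) were those of LINC01140 (6.21), LINC00102 (5.92) and LINC01106 (5.77). With a pseudocount of 1 TPM, LINC00282 was called in 0 fusions, LINC01140 in the DNMT3B fusion alone, and LINC00938 alone was lower in all 4. For LINC00102 the ratio rests on 2 reads in the DNMT3A fusion and 18 in the EGFP fusion, and it was not called.

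**Figure D3:**
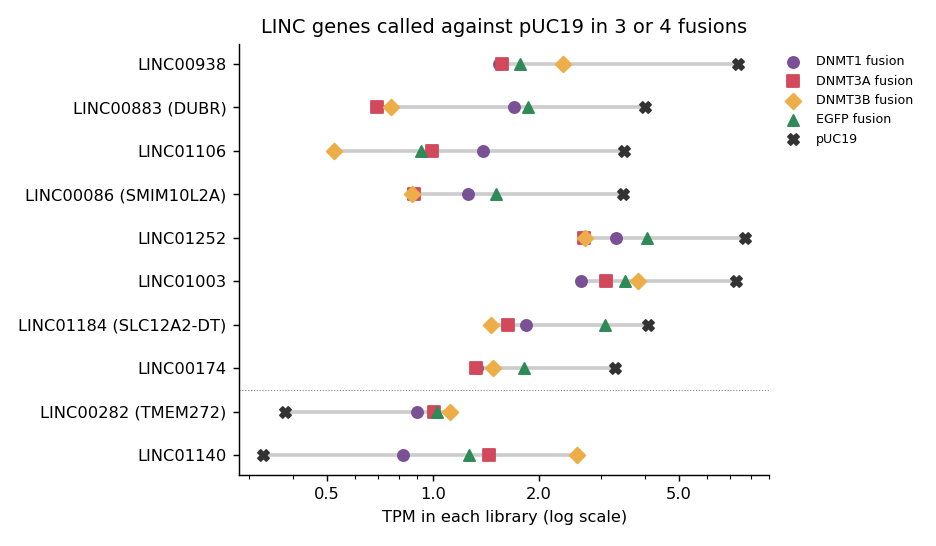
TPM on a log axis in each library (n = 1 each) for the LINC genes called against pUC19 in 3 or 4 fusions, with those called lower above the dotted line and those called higher below it. For LINC00938 the fusions lie between 1.54 and 2.34 TPM and pUC19 at 7.38, and for LINC01140 pUC19 lies at 0.329 TPM below all fusions.

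Calls of members were set beside those of the nearest coding gene. Of 121 members whose nearest coding gene also had at least 50 reads, 9, 10, 11 and 5 were called lower in the DNMT1, DNMT3A, DNMT3B and EGFP fusions, and in 0 of these cases was the neighbour called lower too. With 4.41%, 5.95%, 5.15% and 3.82% of all genes called lower in these comparisons, a count of 0 among so few cases is near the background and is no result about the pairs. Across these pairs of genes Pearson's r between the log2 ratios of member and neighbour lay between -0.04 and 0.05. This is a description, since each r comes from 1 pair of libraries and genes are not independent replicates.

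The second question was how the fusions differed among themselves. Between the DNMT3A and DNMT3B fusions 0 LINC genes were called by the exact test (0.241% of all genes were), with 30 members at an unadjusted p under 0.05. Between the DNMT1 and EGFP fusions 2 were called (1.67%): LINC01002 was higher in the DNMT1 fusion (log2 1.12) and LINC00887 lower (-1.41), both named after their values were seen. The median absolute log2 ratio over members was 0.24 between DNMT3A and DNMT3B and 0.32 between DNMT1 and EGFP, against 0.42 to 0.47 between a fusion and pUC19. These distances were not taken over all genes and include counting error, so they are not read as particular to LINC genes. The fusions with a de novo methyltransferase domain were then set against those without one, with pUC19 left out, in an edgeR quasi-likelihood fit. Its error is the spread within each pair of constructs, chosen with earlier results of these libraries known, so its p-values hold for these libraries only.

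LINC genes were mostly lower in that pair. Of the 165 members that passed the filter of the fit, 125 had a fold change below 0 on the log2 scale, with a median of -0.34, against -0.01 for all genes at the same minimum. Counted in TPM without a fit, 45.3% of members had both DNMT3A and DNMT3B values below both DNMT1 and EGFP values (24.3% of all genes). Of the 172, 19 had both above (33.1% of all genes). Members have fewer reads than most genes, and these shares were not taken by depth. The fit called 5 members lower (4.16% of all genes were) and 0 higher (6.93%). At an unadjusted p under 0.05 there were 36 lower and 3 higher, and DESeq2 called 3, all lower. The shift was seen at every depth: the median was -0.47 for members with fewer than 200 reads (-0.24 for all genes of that depth), -0.29 for those with 200 to fewer than 1000 (-0.12) and -0.20 for those with 1000 or more (0.02). All genes of low count were therefore shifted in the same direction, and to a smaller extent. With GC content and length taken into the fit, the member median was -0.28, over the 87.2% of members with a GC value.

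**Figure D4:**
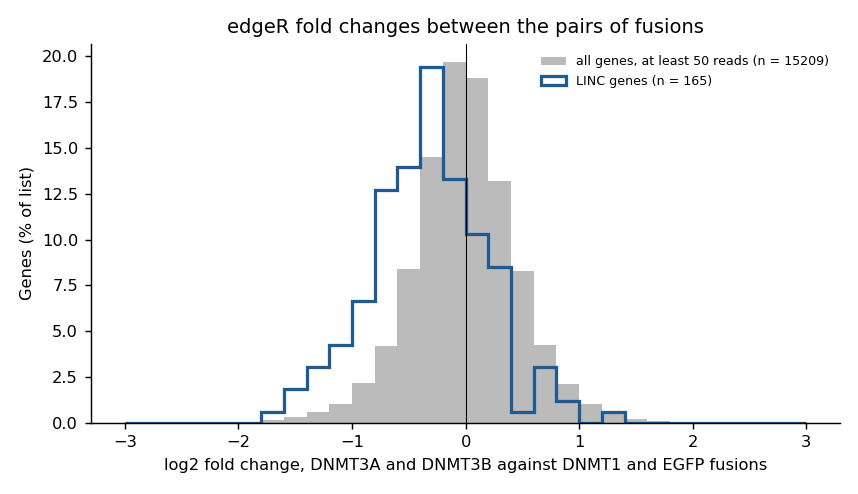
Distribution of edgeR log2 fold changes of the DNMT3A and DNMT3B fusions against the DNMT1 and EGFP fusions, in percent of each list per bin of 0.2, for the 165 LINC genes in the fit (blue line) and 15209 genes with at least 50 reads (grey). The LINC distribution is shifted to the left, with a median of -0.34 against -0.01.

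Other classes of noncoding RNA were set beside the members. Antisense genes with symbols ending in AS1, another class of lncRNA, had a median of -0.27 in the same fit, with 6 of 261 called lower and 1 higher. Host genes of small nucleolar RNAs, which are short-lived and spliced, went the other way, with a median of 0.29 and 4 of 16 called higher. Their 2 de novo libraries were not alike, with a median log2 ratio of 0.32 for DNMT3A against DNMT3B. Against pUC19 their medians were -0.29, 0.27, 0.07 and -0.05 in the DNMT1, DNMT3A, DNMT3B and EGFP fusions. The 15 members that encode proteins had a median of -0.41 and the 146 lncRNA members in the fit one of -0.32. By promoter, the median was -0.35 for the 44 CpG-rich members in the fit and -0.31 for the 74 others.

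Against pUC19 the same ordering was seen on the scale of TPM + 0.1. These ratios use the same fusion libraries as the fit, each over the shared pUC19 library, so the ordering is no second observation. The median log2 ratio over members was -0.28 in the DNMT3A and -0.26 in the DNMT3B fusion, where all genes stood at -0.03 in both. In the EGFP fusion it was 0.11, where all genes stood near 0. In the DNMT1 fusion it was -0.05 against -0.14 for all genes. All genes of low count also stood lower in the DNMT3A and DNMT3B fusions. With fewer than 200 reads, members stood at -0.40 (DNMT3A) and -0.30 (DNMT3B), and all genes of that depth at -0.24 and -0.19. With 200 to fewer than 1000 reads the medians were -0.14 and -0.19 against -0.08 and -0.10. With 1000 or more reads they were -0.11 and -0.13 against 0.00 and 0.01. Under TMM scaling the DNMT1 median became 0.05 (all genes -0.03), so its sign depends on the scaling, while those of the other 3 fusions kept theirs.

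The 5 members called between the pairs of fusions all were lower with DNMT3A and DNMT3B. LINC00641, an lncRNA at chr14:21668238-21675059 on the minus strand with few CpGs in its promoter, had the smallest p-value. It gave 915, 390, 372, 809 and 1535 reads, or 13.6, 5.63, 6.07, 13.2 and 17.7 TPM, so the 2 pairs did not overlap and the DNMT1 and EGFP values were nearer to pUC19. The log2 fold change was -1.25 (SE 0.15, adjusted p = 0.0042, quasi-likelihood test). LINC00883 followed with -1.35 (SE 0.32, adjusted p = 0.0293).

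NORAD changed less, by -0.58 (SE 0.16, adjusted p = 0.0474), with its DNMT1 value nearer to the DNMT3B than to the EGFP value. LINC00346 (PRECSIT, at chr13:111516334-111522677) stood at 4.37, 2.45, 2.78, 4.09 and 3.47 TPM and differed by -0.75 (SE 0.20, adjusted p = 0.0395). LINC00173 stood at 2.23, 0.983, 0.612, 2.16 and 0.903 TPM, from only 11 to 44 reads, and differed by -1.50 (SE 0.41, adjusted p = 0.0466). It was named after its values were seen. For LINC00346 the pUC19 library lay between the pairs, and for LINC00173 it lay at the level of the DNMT3A and DNMT3B fusions, so relative to the control LINC00173 was high with DNMT1 and EGFP rather than low with DNMT3A and DNMT3B. The spread in this fit is that between different constructs. Without the DNMT3A or the DNMT3B library 0 members were called, without DNMT1 11 were and without EGFP 18.

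**Figure D5:**
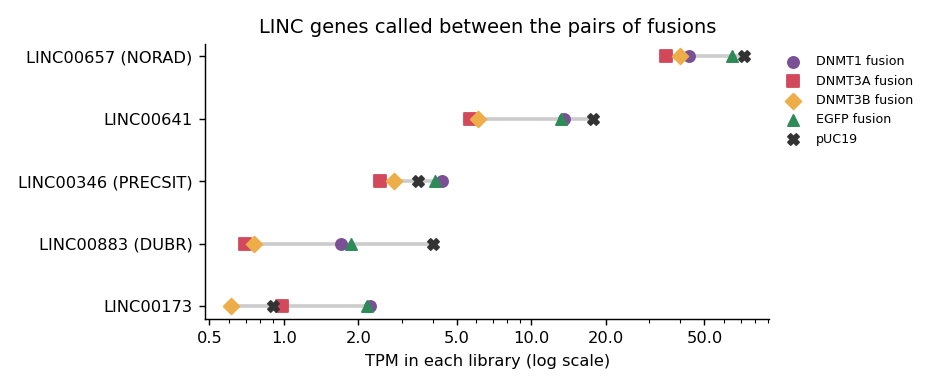
TPM on a log axis in each library (n = 1 each) for the 5 LINC genes called between the pairs of fusions. The DNMT3A and DNMT3B symbols lie at 5.63 and 6.07 TPM for LINC00641, below DNMT1 (13.6), EGFP (13.2) and pUC19 (17.7).

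Members with a known product or role were also followed. Of 16 such symbols, 9 were members, LINC00473 (15 reads), LINC00511 (12) and LINC00261 (1) were below the minimum, and 4 had no entry in the tables. LINC00116 (MTLN, mitoregulin, a mitochondrial microprotein) stood at 4.50, 4.42, 2.74, 3.86 and 6.11 TPM and was called lower in the DNMT3B fusion. LINC00094 (BRD3OS, beside the BRD3 gene) lay at 10.8 to 11.9 TPM in the fusions, all below pUC19, with log2 ratios of -0.88 to -0.75 that missed the 2-fold limit in all 4. LINC00152 (CYTOR), which has a copy of 99.6% identity in MIR4435-2HG, had 7, 23, 14, 11 and 39 reads and was called lower in the DNMT1 fusion. LINC00467, LINC00665 and LINC00662 were called in none, with the highest LINC00467 value, 39.3 TPM, in the EGFP fusion and the others between 23.1 and 26.7.

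The remaining genes with the smallest p-values in either fit did not pass it. LINC00265 was higher in all 4 fusions, at 15.2, 17.5, 18.8 and 15.7 TPM against 9.98 in pUC19 (log2 0.80 for the 4 fusions together, adjusted p = 0.128, quasi-likelihood test). LINC01000 stood at 10.6, 13.0, 13.1, 8.73 and 9.22 TPM (log2 0.37 between the pairs of fusions, adjusted p = 0.164, quasi-likelihood test). LINC01260 had 32 reads in the DNMT3A fusion and 6 in the DNMT1 fusion. It differed by log2 1.32 between the pairs of fusions (adjusted p = 0.142, quasi-likelihood test). Its log2 ratios to pUC19 were -1.12 (DNMT1), 1.01 (DNMT3A), 0.23 (DNMT3B) and -0.15 (EGFP), so the DNMT3B and EGFP fusions lay nearer to each other.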

How the data were processed

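RNA of 5 HEK293T libraries was sequenced on an Ion Proton after poly(A) selection. The authors aligned the reads with tmap to RefSeq RNAs of hg19 (GRCh37) and kept unique hits. The read counts deposited by the authors are whole numbers per gene. The deposited TPM values are these counts divided by gene length and scaled per library, as recomputing them showed. The deposited coverage in percent was not defined by the authors and is not reported. Genes absent from a table were set to 0. The tmap version was not given in the sources used here.

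Groups came from the titles. For pairs of libraries, reads per gene were compared by a conditional binomial test (exact, two-sided, Benjamini-Hochberg over genes with a read in either). Calls required a 2-fold ratio of TPM + 0.1, which understates changes of low genes, with an adjusted p-value not above 0.001. Intervals (95%) and the floor of 3 reads cover counting error only. edgeR (4.0.16, R 4.3.3; TMM, filterByExpr, quasi-likelihood test, adjusted p-value under 0.05) was used on the counts for the DNMT3A and DNMT3B fusions against the DNMT1 and EGFP fusions and for the 4 fusions against pUC19, where the spread is that between constructs. The alternatives tried were TMM scaling, a pseudocount of 1 TPM, a coefficient of variation of 0.2, at least 1 TPM, an adjusted p-value of 0.05, at least 200 reads, DESeq2 (1.42.0), RLE size factors, no filter, a GC and length offset, and leaving out each library. Copies were sought with minimap2 (2.31-r1302), and positions are from GENCODE release 44 on GRCh37. Scripts were tested on simulated data.

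The members and lists were chosen with earlier results of these data known. Named members were the 10 highest by mean TPM, those called in all 4 fusions, the 5 per direction with the largest smallest change among those called in at least 2, in each edgeR fit the 3 of lowest p per direction, the 3 with the largest range, a list of known LINC genes, and those at the read minimum.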

Additional observations from a re-analysis of the deposited data

Results flagged for a closer look

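In 5 LINC genes the change differed between constructs under the same guides, by the edgeR test of DNMT3A and DNMT3B against DNMT1 and EGFP itself. These were 3.03% of the 165 members tested, all lower, where 4.16% of all genes were called lower. No member was called higher, where 6.93% of all genes were. The count is therefore not read as a result about LINC genes. The log2 fold changes were -0.58 for LINC00657 (NORAD), -1.25 for LINC00641, -0.75 for LINC00346, -1.35 for LINC00883 and -1.50 for LINC00173. For each gene both DNMT3A and DNMT3B libraries lay below both DNMT1 and EGFP libraries in TPM, as for 24.3% of all genes. The genes were picked by a fit on the same libraries, so this separation adds nothing to the calls. Each construct has 1 library, so constructs and libraries cannot be told apart.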

How the results depend on the processing

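Several settings moved the exact-test counts by more than 1.5 times. With a coefficient of variation of 0.2 between libraries they became 0 (DNMT1), 2 (DNMT3A), 3 (DNMT3B) and 0 (EGFP) against pUC19, 0 for DNMT1 against EGFP and 0 for members called in all 4 fusions. With a pseudocount of 1 TPM, which shrinks ratios of low genes, they became 7 (DNMT1), 11 (DNMT3B) and 2 (EGFP), 0 for DNMT1 against EGFP and 1 for all 4 fusions. At an adjusted p-value of 0.05 they became 29, 29, 29 and 22 against pUC19 and 10 for DNMT1 against EGFP. With at least 200 reads, DNMT1 against EGFP had 1. Members called in all remaining fusions numbered 4 to 7 when 1 fusion was left out, a setting added after the data were seen.

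In the fit of DNMT3A and DNMT3B against DNMT1 and EGFP, DESeq2 called 3 members and no filter gave 2, and leaving out a library gave 0 to 18. In the fit of the fusions against pUC19, DESeq2 called 10, the GC and length offset gave 0, since LINC00938 has no GC value there, and leaving out a fusion gave 0 to 1. Of 36 exact-test calls of named genes, 31 were lost with the coefficient of variation of 0.2, 13 with the pseudocount of 1 TPM and 2 with TMM scaling, and 0 reversed. Of the 5 edgeR calls of genes named by the rule, which leaves out LINC00173, 5 were lost without DNMT3A, 4 without DNMT3B, 2 with no filter and 1 each with DESeq2, without DNMT1 and without EGFP. The medians moved by less than their SD of 0.18 between fusions, but those of DNMT1 against pUC19 and of DNMT3A against DNMT3B changed sign under TMM scaling, to 0.05 and -0.04. TMM moved the median of all genes by more than 0.1 only in the DNMT1 library, from -0.14 to -0.03. Depth limits the 76 members with fewer than 200 reads most. No paired analysis was possible because each group has 1 library.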
